A study of Mus musculus with 6 samples.

Results

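Kinesins are the motor proteins that use ATP to move along microtubules or to take their ends apart. Here they were followed in RNA sequencing libraries whose labels name mouse lung. Members were the protein-coding genes whose symbol starts with Kif and a digit, which gave 39 of the 54532 genes of the deposited table. They were sorted by known role into 12 mitotic kinesins, 13 transport kinesins, 6 kinesins of cilia, 3 regulators of microtubule ends, 4 further motors and 1 kinesin-binding protein that carries the prefix without a motor. The study compared 3 libraries labelled aged, from mice 18 months old, with 3 labelled young, from mice 3 months old. The labels give no strain, sex, treatment or genotype, and nothing in them shows that each library is a mouse of its own, so every p-value here rests on library-to-library spread that may be technical. The unit is FPKM, in which fragments are divided by gene length and library size, so levels are per length. The length is fixed for each gene, so levels can be compared between genes only roughly.

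Mitotic kinesins build and work the spindle: some slide microtubules apart, some move or hold chromosomes, and some assemble the midzone where a dividing cell is pinched apart. Their transcripts are known to accumulate late in the cell cycle. Transport kinesins carry vesicles, endosomes, mitochondria and RNA towards the plus ends of microtubules, in dividing and resting cells alike. In lung they are known for secretory and endosomal traffic, and kinesin-2 motors and their ciliary relatives for building the cilia of the airway lining.

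The markers of the named tissue were mostly near 0 in all 6 libraries. All 4 club cell markers and all 8 markers of ciliated cells stayed under 1 FPKM, and of 8 alveolar markers 5 stayed under 1 FPKM and the highest value of any was 10.4 FPKM. All 5 endothelial and all 6 leukocyte markers were also under 1 FPKM, while 6 of 7 mesenchymal markers and all 8 proliferation markers reached 10 FPKM in all 6 libraries. The markers therefore go against whole lung tissue, but they do not show which organ the cells came from. The groups are called by their age labels only. Libraries labelled aged held 16649061 to 16906850 recovered reads and those labelled young 17266815 to 17456715, and 3 reads on a gene of 1 kilobase were worth 0.173 to 0.177 FPKM. The libraries labelled young replicates 1 and 3 held transcripts known from kidney, with Kap at 116 and 21.9 FPKM, while Kap was at 0 in the other 4 libraries.

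Of the 39 kinesin genes, 28 reached 0.5 FPKM in at least 3 libraries and were tested with limma on log2(FPKM + 1), with Benjamini-Hochberg adjustment over all 15197 tested genes and a threshold of 0.05. Among them 19 passed, and in all 19 the groups did not overlap. Of all tested genes, 60% passed, so the kinesins as a whole changed about as often as other genes. Groups did not overlap for 21 of the 28, against 66.9% of all tested genes. By role, mitotic kinesins had 5 of 11 tested members higher and 2 lower in libraries labelled aged, against 27.7% higher and 32.3% lower over all tested genes. Transport kinesins had 1 of 10 tested members higher and 7 lower. The median log2 fold change, aged minus young, was 0.12 for mitotic and -0.46 for transport kinesins, beside -0.03 over all tested genes. A setting without both libraries that held kidney transcripts was added after the data were seen. It leaves 1 young-labelled library, so no class counts or calls of single genes are read from it. In bulk RNA, fewer cells of a type and less RNA per cell cannot be told apart.

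**Figure D1:**
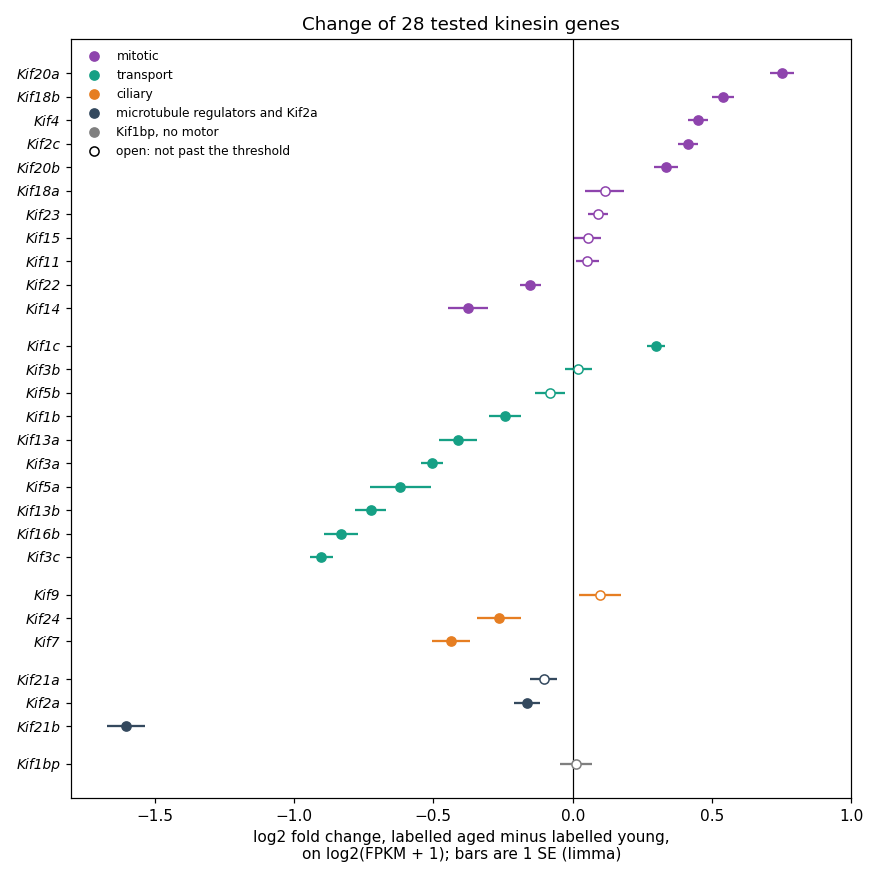
Log2 fold change, labelled aged minus labelled young, on the log2(FPKM + 1) scale for the 28 tested kinesin genes, ordered within each role; bars are 1 SE from limma and open points did not pass the threshold. Mitotic members lie between -0.37 and 0.75, transport members between -0.90 and 0.30, and Kif21b lies lowest at -1.60.

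The mitotic kinesins that rose were Kif20a, Kif18b, Kif4, Kif2c and Kif20b. Kif20a, which brings the chromosomal passenger kinase to the spindle midzone for cytokinesis, had 39.2, 39.95 and 43.2 FPKM in the libraries labelled aged, against 24.3, 23.4 and 23.7 FPKM in those labelled young. Each aged-labelled value lay above each young-labelled value, and the mean was 1.71-fold higher (limma adjusted p = 2.1e-05, log2 fold change 0.75 ± 0.04 SE). The Kif20a gene shares 2315 bases of span with Cdc23 on the opposite strand, and without strand their reads cannot be told apart there. Cdc23 averaged 6.27 FPKM in aged-labelled and 6.68 FPKM in young-labelled libraries. Kif18b, which shortens the astral microtubules that reach the cell edge, had 30.3, 28.5 and 30.7 FPKM in aged-labelled libraries, against 19.98, 19.99 and 20.6 FPKM in young-labelled ones. It was 1.48-fold higher, again without overlap (limma adjusted p = 4.6e-05). Kif4, a motor of chromosome arms that also sets the length of the midzone, had 22.4, 22.4 and 23.9 FPKM in aged-labelled libraries, against 16.4, 16.6 and 16.5 FPKM in young-labelled ones, a 1.39-fold rise (limma adjusted p = 8.1e-05). Its gene shares 832 bases of span with Pdzd11 on the opposite strand, which averaged 22.5 FPKM in aged-labelled and 19.4 FPKM in young-labelled libraries, and reads of the pair cannot be told apart without strand.

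Kif2c (chr4:117159639-117182639, mm10) takes microtubule ends apart at kinetochores, where it frees wrongly attached chromosomes. It had 30.1, 28.7 and 30.8 FPKM in aged-labelled libraries, against 21.98, 22.5 and 21.9 FPKM in young-labelled ones, a 1.35-fold rise with no overlap (limma adjusted p = 0.00011). Kif20b, a relative of Kif20a that acts in the late steps of cytokinesis, had 16.4, 17.6 and 16.3 FPKM in aged-labelled libraries, against 13.5, 13.05 and 12.8 FPKM in young-labelled ones. The rise was 1.28-fold (limma adjusted p = 0.000605), the smallest of the 5 that passed.

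The mitotic kinesins that fell were Kif14 and Kif22. Kif14 (chr1:136466343-136531511, mm10), which binds citron kinase and the midzone bundler Prc1, had 5.06, 4.76 and 5.69 FPKM in aged-labelled libraries, against 7.20, 7.31 and 6.47 FPKM in young-labelled ones. The groups did not overlap and the mean was 1.35-fold lower (limma adjusted p = 0.0038, log2 fold change -0.37 ± 0.07 SE). Kif22, a motor that pushes chromosome arms outwards, had 15.8, 16.6 and 15.7 FPKM in aged-labelled libraries, against 17.4, 18.4 and 17.9 FPKM in young-labelled ones, 1.12-fold lower (limma adjusted p = 0.0123). Its call was lost with median centring (limma adjusted p = 0.0932). Without both libraries that held kidney transcripts, the Kif22 log2 fold change was -0.19, against -0.15 with all libraries. An antisense gene, Gm31749, shares 3824 bases of its span and averaged 1.27 FPKM in aged-labelled and 3.10 FPKM in young-labelled libraries, and without strand the reads of the pair cannot be told apart.

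Kif11, Kif15, Kif23 and Kif18a did not pass the threshold. Kif11, which slides antiparallel microtubules apart to separate the poles, had 27.2, 28.8 and 29.2 FPKM in aged-labelled libraries, against 28.03, 27.8 and 26.2 FPKM in young-labelled ones (limma adjusted p = 0.322, log2 fold change 0.05 ± 0.04 SE). Kif15, which helps keep the poles apart, had 8.53, 8.91 and 9.52 FPKM in aged-labelled libraries, against 8.92, 8.59 and 8.36 FPKM in young-labelled ones (limma adjusted p = 0.396, log2 fold change 0.05 ± 0.05 SE). In both genes the groups overlapped, and Kif11 passed with median centring (limma adjusted p = 0.0467). Kif23, the motor subunit of the centralspindlin complex of the midzone, had 15.05, 14.8 and 15.5 FPKM in aged-labelled libraries, against 14.04, 13.9 and 14.4 FPKM in young-labelled ones. Its groups did not overlap, but the log2 difference was 0.09 ± 0.03 SE (limma adjusted p = 0.0592), and it passed under 4 of the alternatives. Kif18a, which dampens chromosome swings at the metaphase plate, was the lowest of the tested mitotic members, with 2.76, 2.44 and 2.85 FPKM in aged-labelled libraries, against 2.55, 2.25 and 2.40 FPKM in young-labelled ones. The groups overlapped (limma adjusted p = 0.197, log2 fold change 0.12 ± 0.07 SE), and it passed with voom on the recovered reads (adjusted p = 0.0404).

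The order of levels within the class differed between the groups. In libraries labelled aged, Kif20a stood highest at 40.8 ± 2.14 FPKM (SD, n = 3), followed by Kif2c, Kif18b and Kif11, whose library values overlapped one another between 27.2 and 30.8 FPKM. In libraries labelled young, Kif11 stood highest at 27.4 ± 0.995 FPKM (SD, n = 3), above Kif20a at 23.8 ± 0.452 FPKM and Kif2c at 22.2 ± 0.338 FPKM. Kif20a made up 18.8 ± 0.479% of the summed mitotic kinesin FPKM in aged-labelled libraries and 13.7 ± 0.260% in young-labelled ones (SD, n = 3 each). The remaining mitotic member, Kif2b, was not tested: 4 reads were recovered, all in the library labelled aged replicate 2.

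**Figure D2:**
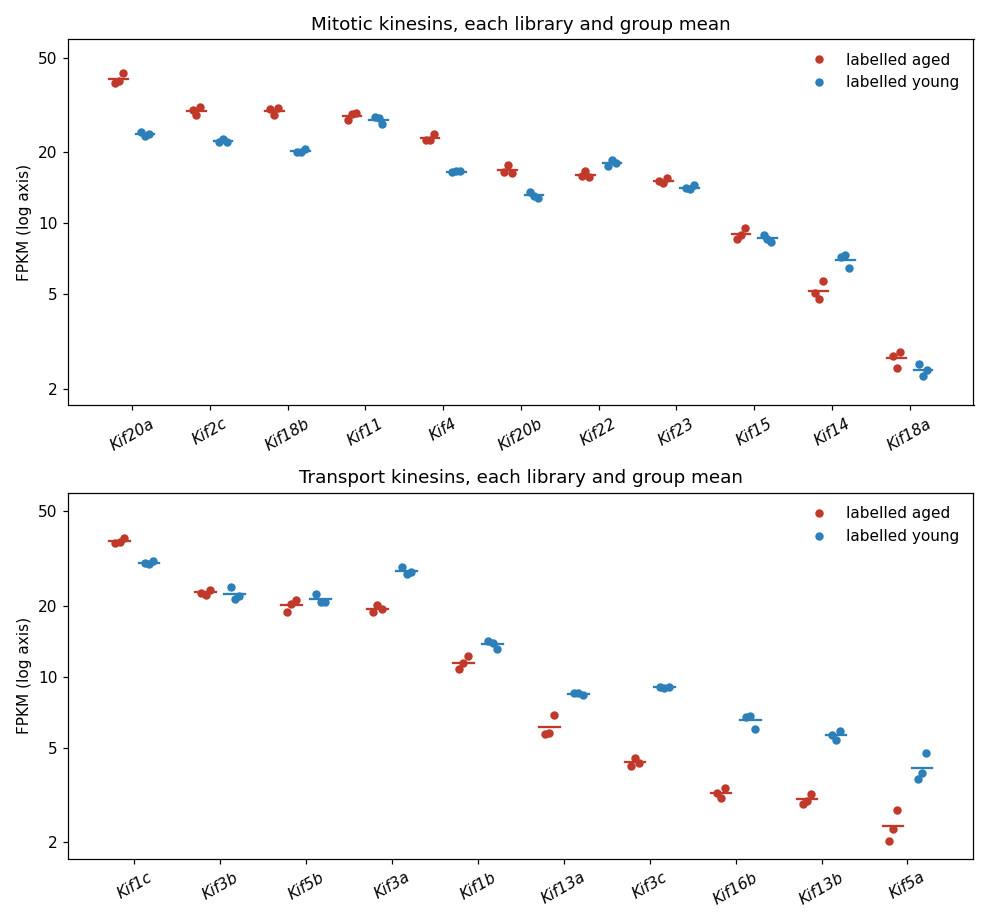
FPKM of each tested mitotic and transport kinesin in every library, with labelled aged left of labelled young for each gene; each point is 1 library, lines are group means and the axis is logarithmic. Without overlap, aged-labelled points lie above young-labelled ones for Kif20a, Kif18b, Kif4, Kif2c, Kif20b, Kif23 and Kif1c, and below them for Kif14, Kif22, Kif3c, Kif16b, Kif13b, Kif5a, Kif3a, Kif13a and Kif1b.

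The promoters of these genes were searched for 2 short elements known from late cell cycle genes. The cell cycle genes homology region (CHR), bound by the MuvB complex that times late cell cycle genes, is written TTTGAA or TTCGAA, and CCAAT is bound by NF-Y and often stands upstream of it. Both were searched on both strands of RefSeq promoters (GRCm38.p6), from 250 bases before the transcript start to 50 after it, with the choice of motif and window made after the expression values were seen. TTCGAA reads the same on both strands, TTTGAA appears as TTCAAA on the other, and overlapping matches were counted once for a gene. RefSeq windows were found for 11 of 12 mitotic genes (not Kif20a) and 10 of 13 transport genes (not Kif5a, Kif5b or Kif13b). The 300-base window held CHR letters in 9 of 11 mitotic genes, in 1 of 10 transport genes and in 21.7% of the 27025 genes with a window. In the 90 bases from 60 before the start, CHR letters stood in 7 of 11 mitotic genes and in 1 of 10 transport genes, against 5.71% of all genes, and CCAAT in 6 of 11 and 1 of 10, against 16.01%. Among transport genes the CHR match was in Kif1a, at 1 of its 2 RefSeq starts, and the CCAAT match in the 90 bases was in Kif3a.

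The 90-base windows are shown for the 7 mitotic genes with CHR letters there and for 3 transport genes that fell, to show where the letters stand; each runs 5′ to 3′ on the strand of the gene, and capitals mark the CHR letters.
Kif18b, chr11:102925095-102925184, minus strand: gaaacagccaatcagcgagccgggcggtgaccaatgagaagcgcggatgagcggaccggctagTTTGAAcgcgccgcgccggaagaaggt
Kif4, chrX:100626005-100626094, plus strand: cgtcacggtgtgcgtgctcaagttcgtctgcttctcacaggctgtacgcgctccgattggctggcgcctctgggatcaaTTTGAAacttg
Kif20b, chr19:34922298-34922387, plus strand: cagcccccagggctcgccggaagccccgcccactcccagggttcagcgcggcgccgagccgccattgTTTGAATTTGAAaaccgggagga
Kif23, chr9:61946770-61946859, minus strand: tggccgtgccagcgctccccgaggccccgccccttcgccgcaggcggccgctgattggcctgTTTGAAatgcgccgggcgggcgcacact
Kif11, chr19:37376322-37376411, plus strand: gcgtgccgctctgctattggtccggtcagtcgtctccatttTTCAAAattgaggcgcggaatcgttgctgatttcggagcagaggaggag
Kif15, chr9:122951021-122951110, plus strand: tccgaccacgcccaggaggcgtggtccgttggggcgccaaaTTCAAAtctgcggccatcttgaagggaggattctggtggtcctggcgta
Kif22, chr7:127042391-127042480, minus strand: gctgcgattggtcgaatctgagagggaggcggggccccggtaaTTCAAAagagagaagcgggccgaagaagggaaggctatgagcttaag
Kif3a, chr11:53567309-53567398, plus strand: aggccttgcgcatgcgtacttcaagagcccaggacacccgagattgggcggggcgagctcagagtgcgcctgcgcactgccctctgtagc
Kif3c, chr12:3365072-3365161, plus strand: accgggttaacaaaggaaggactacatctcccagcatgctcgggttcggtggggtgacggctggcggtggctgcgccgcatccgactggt
Kif16b, chr2:142901435-142901524, minus strand: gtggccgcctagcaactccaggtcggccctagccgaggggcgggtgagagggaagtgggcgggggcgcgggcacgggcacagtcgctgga

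The 7 mitotic windows cover each class of result: Kif18b, Kif4 and Kif20b rose, Kif22 fell, and Kif11, Kif15 and Kif23 did not pass the threshold. The letters stood 17 to 19 bases before the start in Kif22, Kif11 and Kif15, and began within the first 20 bases of the transcript in Kif23, Kif18b, Kif20b and Kif4. Kif20b held 2 adjoining copies. Kif2c and Kif14 held CHR letters only outside the 90 bases, at 103 and 228 bases before the start, and Kif18a and Kif2b held none in the 300 bases. The RefSeq start lay 1505 bases from the gene start of the deposited table for Kif14, 3867 bases for Kif2c and 328 bases for Kif4, and at most 51 bases for the other mitotic genes. A match is a run of letters, and binding was not measured.

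**Figure D3:**
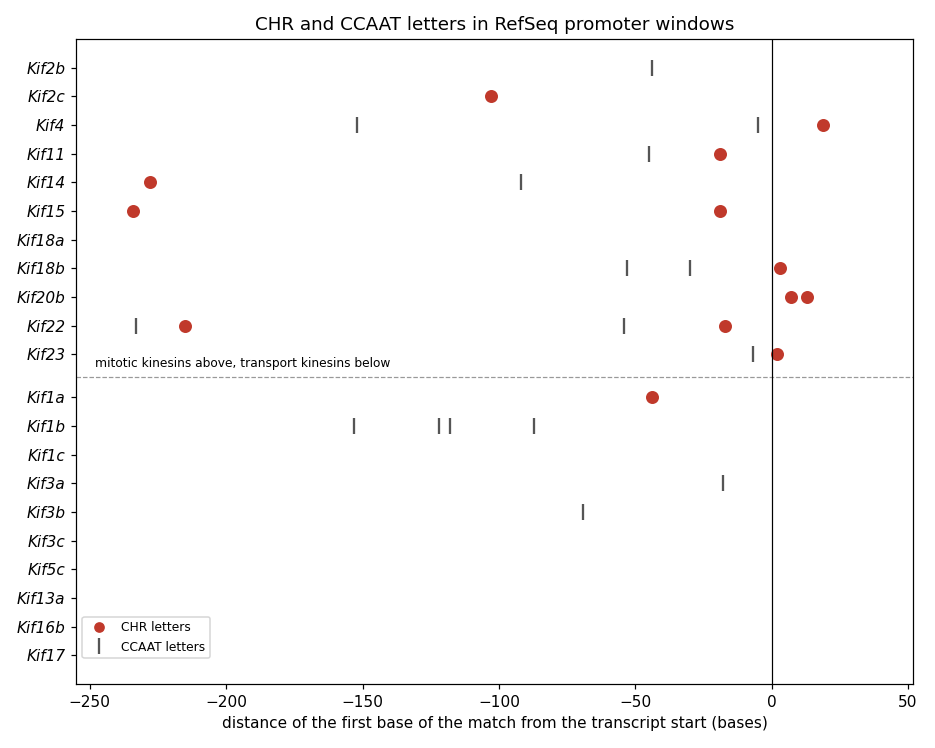
Distance in bases of each CHR match (points) and CCAAT match (bars) from the RefSeq transcript start, for mitotic genes above the dashed line and transport genes below it. CHR points lie near the start in 7 mitotic rows and in the Kif1a row; Kif1a and Kif1b each have 2 RefSeq starts drawn on 1 row.

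Among transport kinesins the largest falls were in Kif3c of the kinesin-2 family and in Kif16b and Kif13b of the kinesin-3 family. Kif3c, a partner of Kif3a in an alternative form of the kinesin-2 motor, had 4.22, 4.55 and 4.33 FPKM in aged-labelled libraries, against 9.06, 8.97 and 9.03 FPKM in young-labelled ones. The values within each group lay close together, and the mean was 2.07-fold lower (limma adjusted p = 1.0e-05, log2 fold change -0.90 ± 0.04 SE). An antisense gene, 1110002L01Rik, shares 2617 bases of the Kif3c span and averaged 1.62 FPKM in aged-labelled and 1.33 FPKM in young-labelled libraries. Kif16b, which positions early endosomes, had 3.23, 3.08 and 3.40 FPKM in aged-labelled libraries, against 6.76, 6.84 and 6.03 FPKM in young-labelled ones. It was 2.02-fold lower with no overlap (limma adjusted p = 5.4e-05). Kif13b (chr14:64647265-64809617, mm10), which carries membrane cargo bound to the scaffold Dlg, had 2.90, 2.999 and 3.21 FPKM in aged-labelled libraries, against 5.69, 5.41 and 5.91 FPKM in young-labelled ones, 1.87-fold lower (limma adjusted p = 6.2e-05). Its relative Kif13a, a motor of recycling endosomes, had 5.73, 5.79 and 6.91 FPKM in aged-labelled libraries, against 8.53, 8.54 and 8.36 FPKM in young-labelled ones, 1.38-fold lower (limma adjusted p = 0.00202).

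Of the paired kinesin-2 subunits, Kif3a fell and Kif3b did not pass the threshold. Kif3a and Kif3b join to form the motor that carries cargo into cilia and along axons. Kif3a had 18.8, 20.1 and 19.3 FPKM in aged-labelled libraries, against 28.99, 27.1 and 27.7 FPKM in young-labelled ones, 1.44-fold lower without overlap (limma adjusted p = 7.1e-05). Kif3b had 22.7, 22.2 and 23.4 FPKM in aged-labelled libraries, against 24.00, 21.4 and 21.9 FPKM in young-labelled ones. Its groups overlapped and it did not pass the threshold (limma adjusted p = 0.744, log2 fold change 0.02 ± 0.05 SE). The ratio of Kif3a to Kif3b FPKM was 0.830, 0.905 and 0.825 in the 3 aged-labelled libraries, against 1.21, 1.27 and 1.26 in the young-labelled ones. By FPKM the Kif3b transcript thus stood higher in aged-labelled libraries and the Kif3a transcript in young-labelled ones. Recovered reads, not divided by gene length, were more for Kif3b in every library. The ratio was not tested, and protein was not measured. Kif3c made up 9.38 ± 0.287% of summed Kif3a, Kif3b and Kif3c FPKM in aged-labelled libraries and 15.2 ± 0.536% in young-labelled ones (SD, n = 3 each). Kifap3, the accessory subunit that binds the Kif3a and Kif3b pair, averaged 19.04 FPKM in aged-labelled and 22.8 FPKM in young-labelled libraries and fell too (log2 fold change -0.25, limma adjusted p = 0.00593).

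Of the kinesin-1 heavy chains, which carry vesicles and mitochondria with the help of light chains, the widely expressed form did not pass the threshold and the neuronal form fell. Kif5b had 18.8, 20.2 and 21.2 FPKM in aged-labelled libraries, against 22.5, 20.7 and 20.7 FPKM in young-labelled ones, with overlapping groups (limma adjusted p = 0.241, log2 fold change -0.08 ± 0.05 SE). Kif5a, known mainly from neurons, had 2.03, 2.27 and 2.74 FPKM in aged-labelled libraries, against 3.70, 3.94 and 4.77 FPKM in young-labelled ones. The mean was 1.76-fold lower (limma adjusted p = 0.0025), and replicate 3 was the highest of each group. Kif5b made up 88.2 ± 1.04% of summed kinesin-1 FPKM in aged-labelled libraries and 82.5 ± 2.34% in young-labelled ones (SD, n = 3 each). Of 10 neuron markers, 9 stayed under 1 FPKM in every library and 1 of these was at 0. Their summed level ran from 3.84 to 4.05 FPKM in aged-labelled libraries and from 10.1 to 12.4 FPKM in young-labelled ones, and nearly all of it was Eno2, an enolase. The other 9, all near 0, summed to 0.302 to 0.357 FPKM in aged-labelled libraries and to 0.196 to 0.259 FPKM in young-labelled ones. The part of neuronal cells in the Kif5a result was not tested. The third heavy chain, Kif5c, lay below the filter, with 39, 40 and 53 reads in aged-labelled libraries, against 43, 48 and 46 in young-labelled ones. The ratio of mean reads, scaled by the library sizes fitted from the FPKM values, was 0.973 (95% interval 0.760 to 1.24).

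The Kif1 motors of the kinesin-3 family went in opposite directions. Kif1c (chr11:70700548-70731964, mm10), which carries vesicles and messenger RNA in non-neuronal cells, was the 1 tested transport kinesin that rose, although Kif1a also passed when no filter on low values was used. It had 36.7, 37.3 and 38.6 FPKM in aged-labelled libraries, against 30.2, 29.8 and 30.8 FPKM in young-labelled ones, 1.24-fold higher without overlap (limma adjusted p = 0.000284, log2 fold change 0.30 ± 0.03 SE). Kif1b, a motor of mitochondria and synaptic vesicle precursors by isoform, had 10.7, 11.4 and 12.3 FPKM in aged-labelled libraries, against 14.2, 13.9 and 13.1 FPKM in young-labelled ones, 1.20-fold lower (limma adjusted p = 0.00921). Without both libraries that held kidney transcripts, the Kif1b log2 fold change was -0.26, against -0.24 with all libraries. Kif1c was the most abundant transport kinesin in both groups and made up 28.7 ± 0.348% of summed transport FPKM in aged-labelled libraries and 20.2 ± 0.560% in young-labelled ones (SD, n = 3 each). In young-labelled libraries Kif3a came second, with a mean of 27.9 FPKM, above Kif3b and Kif5b, which overlapped. In aged-labelled libraries Kif3b, Kif5b and Kif3a had means of 22.7, 20.1 and 19.4 FPKM, with overlap between Kif5b and Kif3a.

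Summed over all 39 genes, kinesin transcripts came to 384 ± 12.5 FPKM in aged-labelled libraries and 374 ± 3.92 FPKM in young-labelled ones (SD, n = 3 each), with overlapping library values. The sums of mitotic and of transport genes did not overlap between groups. The 12 mitotic genes summed to 213, 214 and 223 FPKM in aged-labelled libraries, against 174, 174 and 171 FPKM in young-labelled ones. The 13 transport genes summed to 126, 130 and 136 FPKM in aged-labelled libraries, against 154, 147 and 149 FPKM in young-labelled ones. Mitotic kinesins thus made up 57.5 ± 0.342% of motor FPKM in aged-labelled libraries and 47.3 ± 0.506% in young-labelled ones, and the ratio of mitotic to transport FPKM was 1.66 ± 0.0259 in aged-labelled and 1.16 ± 0.0254 in young-labelled libraries (SD, n = 3 each). Leaving out the gene that moved each sum most did not make the groups overlap: without Kif20a the mitotic sum was 176 ± 3.75 FPKM in aged-labelled and 149 ± 1.56 FPKM in young-labelled libraries, and without Kif3a the transport sum was 111 ± 4.70 FPKM in aged-labelled and 122 ± 2.65 FPKM in young-labelled libraries. Within transport, the kinesin-2 genes summed to 46.6 ± 0.723 FPKM in aged-labelled and 59.5 ± 2.37 FPKM in young-labelled libraries, while the kinesin-3 genes summed to 61.5 ± 2.67 FPKM in aged-labelled and 64.7 ± 0.607 FPKM in young-labelled libraries, with 1 aged-labelled library inside the young-labelled range. These sums carry no test. The 8 proliferation markers summed to 614 to 624 FPKM in aged-labelled libraries and to 546 to 552 FPKM in young-labelled ones. Past the limma threshold 5 of them were higher and 2 lower, against 27.7% higher and 32.3% lower over all tested genes. Their part in the mitotic result was not tested.

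**Figure D4:**
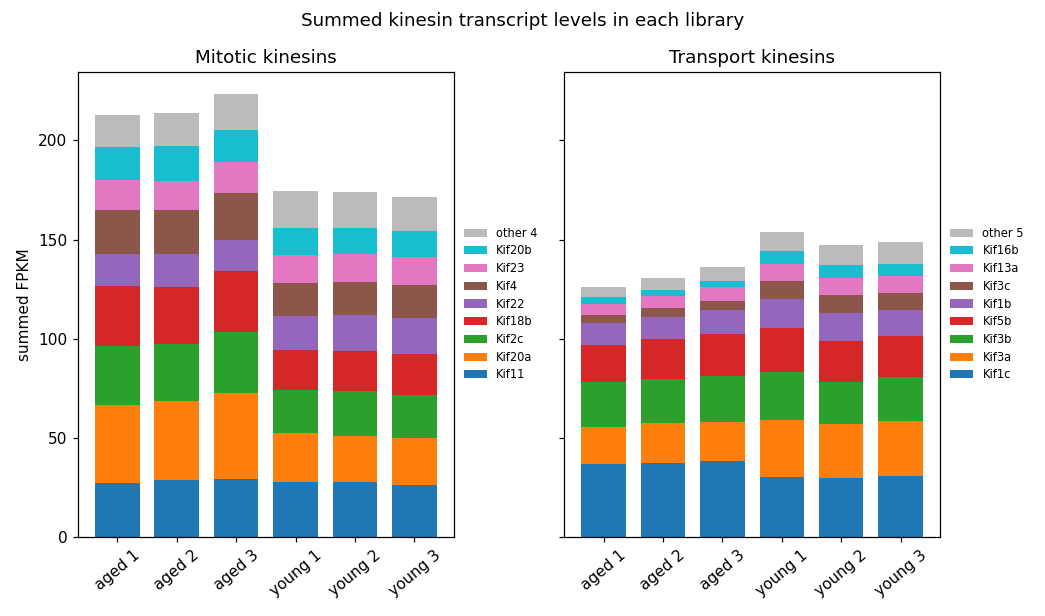
Summed FPKM of mitotic and of transport kinesins in each library, labelled aged left of labelled young, stacked by gene. Mitotic sums lie at 213 to 223 FPKM in aged-labelled and 171 to 174 FPKM in young-labelled libraries, and transport sums at 126 to 136 FPKM in aged-labelled and 147 to 154 FPKM in young-labelled libraries.

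The largest change of any tested kinesin was in neither class. Kif21b (chr1:136131389-136177998, mm10), a motor known from neurons and lymphocytes that halts microtubule growth, had 3.62, 3.39 and 4.18 FPKM in aged-labelled libraries, against 12.9, 13.3 and 13.8 FPKM in young-labelled ones. Every aged-labelled value was far below every young-labelled value, and the mean was 3.58-fold lower (limma adjusted p = 7.6e-06, log2 fold change -1.60 ± 0.07 SE). The 6 leukocyte markers summed to 1.35 to 1.46 FPKM in aged-labelled and 0.825 to 1.25 FPKM in young-labelled libraries. Cd79a averaged 0.815 FPKM in aged-labelled and 0.384 FPKM in young-labelled libraries, and the pan-leukocyte gene Ptprc 0.080 and 0.020 FPKM. Ly6c2 alone went the other way, with 0.178 FPKM in aged-labelled and 0.521 FPKM in young-labelled libraries. The part of leukocytes in the Kif21b result was not tested. Its relative Kif21a, which restrains microtubule growth at the cell edge, lay between 7.11 and 7.89 FPKM in aged-labelled libraries and between 7.996 and 8.08 FPKM in young-labelled ones (limma adjusted p = 0.0996), and passed without the library labelled aged replicate 3 (limma adjusted p = 0.0247). Kif2a, a depolymerase of microtubule ends outside and inside the spindle, had 7.84, 7.16 and 7.64 FPKM in aged-labelled libraries, against 8.35, 8.57 and 8.80 FPKM in young-labelled ones, 1.14-fold lower (limma adjusted p = 0.0197). The Kif2a call was lost with median centring or quantile normalization (limma adjusted p = 0.108 and 0.0807). It was also lost without the aged-labelled replicate 2 or the young-labelled replicate 2 or 3 (limma adjusted p of 0.0555 to 0.0634). Without both libraries that held kidney transcripts, the Kif2a log2 fold change was -0.16, as with all libraries.

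Among the ciliary kinesins 3 of 6 were tested. Kif7, which works at the tip of the primary cilium in Hedgehog signalling, had 3.91, 3.71 and 4.45 FPKM in aged-labelled libraries, against 6.05, 5.49 and 5.80 FPKM in young-labelled ones. The mean was 1.44-fold lower without overlap (limma adjusted p = 0.00153). Without both libraries that held kidney transcripts, the Kif7 log2 fold change was -0.37, against -0.44 with all libraries. Kif24, which keeps cilia from forming at the mother centriole, had 4.10, 4.04 and 4.93 FPKM in aged-labelled libraries, against 5.36, 5.14 and 5.76 FPKM in young-labelled ones, 1.24-fold lower (limma adjusted p = 0.0232). The Kif24 call was lost with no filter, median centring or quantile normalization (limma adjusted p of 0.0554 to 0.0663). It was also lost without the aged-labelled replicate 1 or 2 or the young-labelled replicate 1 or 3 (limma adjusted p of 0.054 to 0.0753). Without both libraries that held kidney transcripts, the Kif24 log2 fold change was -0.20, against -0.26 with all libraries. Kif9, a motor of motile cilia, did not pass (limma adjusted p = 0.296, log2 fold change 0.10 ± 0.08 SE), nor did Kif1bp, which binds several kinesins and blocks their hold on microtubules (0.01 ± 0.06 SE, limma adjusted p = 0.873). The 8 markers of ciliated cells summed to 0.880 to 0.9995 FPKM in aged-labelled and 0.544 to 0.610 FPKM in young-labelled libraries.

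The 11 untested members had few reads, and their ratios of mean reads, scaled by the fitted library sizes, carry 95% intervals that cover counting error only. A read was recovered for 26703 to 26925 genes in aged-labelled libraries and for 24074 to 24363 genes in young-labelled ones, although aged-labelled libraries held fewer reads, and the part of this difference in the ratios was not tested. Markers of ciliated cells and the neuron markers other than Eno2, all near 0, were also higher in sum in aged-labelled libraries. Kif27, a kinesin of motile cilia, had 19, 9 and 12 reads in aged-labelled libraries, against 1, 4 and 3 in young-labelled ones, a ratio of 5.05 (95% interval 2.33 to 12.5). Kif1a, the axonal motor of synaptic vesicle precursors, had 9, 10 and 14 reads in aged-labelled libraries, against 0, 3 and 0 in young-labelled ones, a ratio of 11.1 (95% interval 3.48 to 56.6). Both passed when no filter on low values was used, with limma adjusted p of 0.0376 for Kif27 and 0.0279 for Kif1a. In that fit 27.7% of 33676 genes passed. Kif6, Kif26a and Kif26b did not pass in it (limma adjusted p = 0.102, 0.0924 and 0.141). Kif6, known from the cilia of the brain lining, had 7, 2 and 8 reads in aged-labelled libraries, against 0, 0 and 1 in young-labelled ones, a ratio of 17.2 (95% interval 2.69 to 717). Kif26a and Kif26b bind microtubules without moving along them. Kif26a had 14, 16 and 11 reads in aged-labelled libraries, against 9, 4 and 6 in young-labelled ones, a ratio of 2.18 (95% interval 1.24 to 3.98). Kif26b had 15, 11 and 15 reads in aged-labelled libraries, against 4, 8 and 4 in young-labelled ones, a ratio of 2.59 (95% interval 1.42 to 4.94). For Kif17, Kif19a and Kif28 the intervals spanned a ratio of 1, with at most 12 reads in a library. Kif12, a motor known from kidney tubules, had 7 reads in the young-labelled replicate 1, 1 in replicate 3 and 0 in every other library; both are the libraries that held kidney transcripts, and 3 reads over the aged-labelled group would be 0.0172 FPKM.

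Kinesins whose symbols do not start with Kif and a digit were also measured. Of 6 tested, 2 rose, 2 fell and 2 did not pass, near the 60% of all tested genes that passed. Kifc1, the minus-end motor that gathers spindle poles, averaged 29.7 FPKM in aged-labelled and 24.3 FPKM in young-labelled libraries (log2 fold change 0.28, limma adjusted p = 0.000368). The other gene that rose was its near-identical copy Kifc5b, with 29.5 FPKM in aged-labelled and 25.2 FPKM in young-labelled libraries (log2 fold change 0.22, limma adjusted p = 0.00476). These copies could share reads, so their rises may not be separate. Cenpe, the kinetochore motor that brings chromosomes to the plate, averaged 25.8 FPKM in aged-labelled and 25.7 FPKM in young-labelled libraries (limma adjusted p = 0.941). The members that fell were Kifc3, a motor of cell junctions, with 6.78 FPKM in aged-labelled and 8.57 FPKM in young-labelled libraries (limma adjusted p = 0.000573), and Stard9, a centriole motor, with 2.47 FPKM in aged-labelled and 3.42 FPKM in young-labelled libraries (limma adjusted p = 0.00443).

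The list of mitotic kinesin partners also held general mitotic genes such as Ccnb1. Of its 20 genes, 14 rose, 4 fell and 2 did not pass, against 27.7% higher and 32.3% lower over all tested genes. The median log2 fold change was 0.24. Aurka, the kinase of spindle poles, averaged 69.4 FPKM in aged-labelled and 35.1 FPKM in young-labelled libraries (log2 fold change 0.96, limma adjusted p = 2.8e-06). Ccnb1, the cyclin that drives entry into mitosis, averaged 68.3 FPKM in aged-labelled and 42.1 FPKM in young-labelled libraries (log2 fold change 0.69, limma adjusted p = 7.1e-06). Hmmr, which tethers spindle poles, averaged 30.4 FPKM in aged-labelled and 20.3 FPKM in young-labelled libraries (log2 fold change 0.56, limma adjusted p = 9.3e-05). Mki67, the chromosome coat protein used to mark dividing cells, went the other way, with 54.3 FPKM in aged-labelled and 75.97 FPKM in young-labelled libraries (log2 fold change -0.48, limma adjusted p = 7.7e-05). Aurkb, the chromosomal passenger kinase, also fell (log2 fold change -0.29, limma adjusted p = 0.000981). So did the midzone bundler Prc1 (-0.22, limma adjusted p = 0.00307) and Numa1 (-0.13, limma adjusted p = 0.0468). Incenp and Racgap1 did not pass (limma adjusted p = 0.0559 and 0.0613).

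Transcripts of adaptors and light chains of transport kinesins mostly fell: of 17 tested genes among 20, 2 rose, 10 fell and 5 did not pass, against 27.7% higher and 32.3% lower over all tested genes, with a median log2 fold change of -0.24. Klc3, a kinesin-1 light chain, averaged 1.35 FPKM in aged-labelled and 4.36 FPKM in young-labelled libraries (log2 fold change -1.19, limma adjusted p = 9.3e-05). The more abundant light chain Klc1 averaged 33.8 FPKM in aged-labelled and 42.9 FPKM in young-labelled libraries (log2 fold change -0.34, limma adjusted p = 0.000222). Mapk8ip1, a scaffold that links kinesin-1 to cargo, averaged 0.968 FPKM in aged-labelled and 2.11 FPKM in young-labelled libraries (log2 fold change -0.67, limma adjusted p = 0.00174). Arl8a, a small GTPase that recruits kinesins to lysosomes, rose, with 44.02 FPKM in aged-labelled and 30.2 FPKM in young-labelled libraries (log2 fold change 0.53, limma adjusted p = 3.4e-05).

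The intraflagellar transport trains that kinesin-2 pulls had 20 tested components, of which 1 rose, 9 fell and 10 did not pass, against 60% of all tested genes that passed and 32.3% that were lower, at a median log2 fold change of -0.13. The largest changes were in train subunits of the B complex: Ift57 averaged 3.93 FPKM in aged-labelled and 6.58 FPKM in young-labelled libraries (limma adjusted p = 0.00075), Ift80 4.30 FPKM in aged-labelled and 6.94 FPKM in young-labelled libraries (limma adjusted p = 0.000149), and Ift81 3.35 FPKM in aged-labelled and 5.43 FPKM in young-labelled libraries (limma adjusted p = 7.8e-05).

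**Figure D5:**
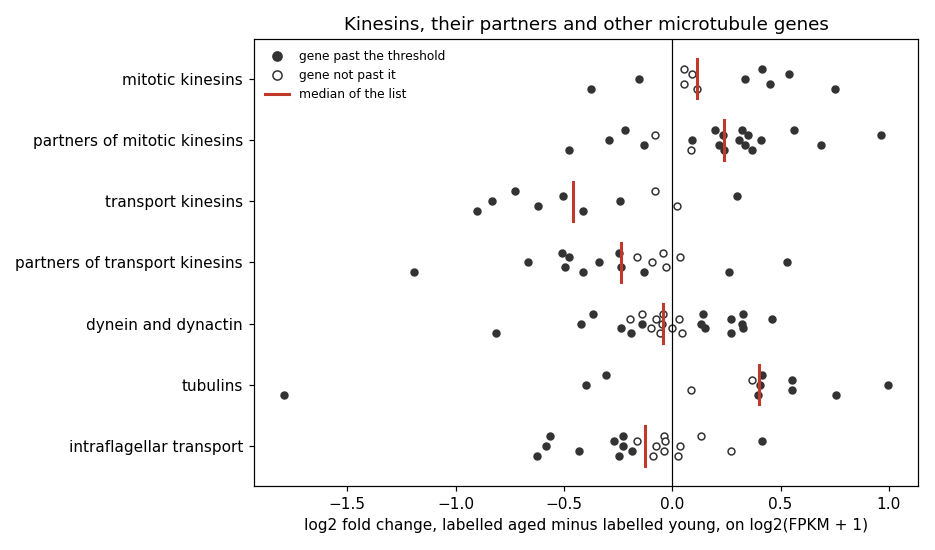
Log2 fold change, labelled aged minus labelled young, of each tested gene in the kinesin classes and in the lists of their partners, tracks and opposing motor; each point is 1 gene, filled where it passed the limma threshold. Mitotic partners have a median of 0.24, transport partners of -0.24 and intraflagellar transport of -0.13.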

How the data were processed

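Total RNA was sequenced as read pairs on an Illumina NovaSeq instrument and aligned with HISAT2 2.0.5, per the labels' protocols, to mm10, per the submitters' processing notes. The sources used here give no counter, annotation or use of strand. The authors deposited FPKM values; multiplied by gene length and a scaling size fitted for each library, 100% of values were whole reads within a tolerance of 0.01. Genes reaching 0.5 FPKM in 3 or more of 6 libraries were tested on log2(FPKM + 1) with limma 3.58.1 in R 4.3.3 (mean-variance trend, 2-sided, Benjamini-Hochberg adjustment). Log2 fold changes are on that scale, which understates change in low genes; folds are ratios of mean FPKM. Pairs of libraries differed by more than sampling noise (chi-square per degree of freedom 2.25 to 4.93 within groups). Read intervals are exact. Every tested mitotic and transport member is given by library, as are called members of other roles. Of other lists, up to 3 called members with the largest change are given, with Cenpe, Kifc1, Kifap3, Klc1 and Mki67. Aurkb, Prc1, Numa1, Incenp, Racgap1 and Kifc5b were added after the results were seen. Members and lists were chosen with earlier results of these data known. Of the members, 12 overlap another gene of at least 1 FPKM. The fit was tested on simulated data. Other steps used Python 3.11.15, pandas 2.3.3, numpy 2.4.6, scipy 1.17.1 and matplotlib 3.10.9.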

Additional observations from a re-analysis of the deposited data

How the results depend on the processing

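Alternatives were pseudocounts of 0.1 and 0.5, no filter, a filter at a mean of 1 FPKM, median centring, quantile normalization, TPM, voom on the recovered reads, a replicate block, leaving out single libraries, a threshold of 0.01 and other class boundaries. No kinesin past the threshold changed sign under any of them. The mitotic genes called higher numbered 5 to 7 and the transport genes called lower 6 to 7 throughout. Of all genes in each fit, 27.7% passed with no filter, 46% at the threshold of 0.01 and 53.7% to 64.6% in the others. Both settings with 7 mitotic genes called higher called more of the 15197 genes higher. These numbered 4988 with median centring and 4725 with voom, against 4212 in the main fit. Genes called lower numbered 4026, 4787 and 4903 in the same order. With no filter, 2 transport genes were called higher and the transport median was -0.24, as 3 low genes entered. Median centring left 1 mitotic gene called lower and gave a mitotic median of 0.18, voom gave a mitotic median of 0.19, and the threshold of 0.01 left 1 mitotic gene called lower. Leaving out both young-labelled libraries with kidney transcripts was chosen after seeing the data. It leaves 1 young-labelled library, assumed to vary like the others, and gave a mitotic median of 0.18. Median centring moves the log2 fold change of every gene by the same amount. The median over all tested genes was 0.0386 with it and -0.0037 with voom, against -0.0273 in the main fit. The cause of the change under voom was not tested. Without each library in turn, the class counts stayed at 5 and 2 for mitotic and 1 and 7 for transport genes, while all calls ran from 8155 to 8708, against 9115 with every library. With Kif2a counted as mitotic, 3 mitotic genes were called lower; with Kif3a, Kif3b and Kif17 counted as ciliary, 6 transport genes were called lower and the median was -0.52. No pairing by replicate number was seen. Same-numbered deviations correlated at 0.0056, -0.0079 and 0.0192, and other-numbered ones at -0.0402 to 0.0360. These values cannot show how the libraries were prepared. With the replicate block 8441 genes were called, and the class counts were 5, 2, 1 and 7. With 3 libraries a group and 16649061 to 17456715 reads per library, members under 0.5 FPKM were left out by the filter.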

Other observations

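Microtubule tracks and the opposing motor were described for the same libraries. Of 12 tested tubulin genes, 7 rose, 3 fell and 2 did not pass the limma threshold, against 27.7% higher and 32.3% lower over all tested genes, with a median log2 fold change of 0.40. Tuba4a averaged 90.96 FPKM in aged-labelled and 45.1 FPKM in young-labelled libraries (log2 fold change 0.997, limma adjusted p = 1.7e-05), and Tubb4b averaged 338 FPKM in aged-labelled and 199.9 FPKM in young-labelled libraries (log2 fold change 0.76, limma adjusted p = 1.6e-05). Tubb4a, a beta-tubulin known from brain, fell, with 0.865 FPKM in aged-labelled and 5.46 FPKM in young-labelled libraries (log2 fold change -1.79, limma adjusted p = 5.8e-06). Tubulin genes are close copies of one another, and the sources used here do not say how reads were divided among them.

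Cytoplasmic dynein and dynactin, which carry cargo towards microtubule minus ends, had 25 tested genes, of which 9 rose, 6 fell and 10 did not pass, the same share as the 60% of all tested genes that passed, at a median log2 fold change of -0.04. Actr1a, the actin-related protein of the dynactin filament, averaged 55.7 FPKM in aged-labelled and 40.2 FPKM in young-labelled libraries (log2 fold change 0.46, limma adjusted p = 3.8e-05). Dctn1, the dynactin subunit that binds microtubules, averaged 18.7 FPKM in aged-labelled and 25.4 FPKM in young-labelled libraries (log2 fold change -0.42, limma adjusted p = 0.00025), and the light chain gene Dynlt1b 19.1 FPKM in aged-labelled and 34.3 FPKM in young-labelled libraries (log2 fold change -0.81, limma adjusted p = 8.9e-05).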
